A study of Mus musculus with 24 samples.

Results

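The Myc family of transcription factors was examined in mouse embryonic stem cells in which CTCF was degraded and, in most groups, replaced by a transgene. The 7 genes were taken by symbol from the deposited expression tables: Myc, Mycn, Mycl, Max, Mxd1, Mxd3 and Mnt, 7 of 55291 symbols listed. All 7 passed the filter on low counts, which kept 18713 genes. Total RNA was sequenced from 24 libraries in 12 groups of 2, all from E14Tg2a cells (strain 129/Ola) in which auxin triggers breakdown of the cells' own CTCF through a degron tag. CTCF binds DNA through a row of zinc fingers, blocks enhancers at insulators and stops cohesin as it extrudes loops.

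Every group came from a line that also carries a doxycycline-inducible Ctcf transgene. The wild-type (WT) transgene line was left untreated (WT UN), treated with the auxin indole-3-acetic acid alone (WT IAA, CTCF degraded and not replaced), or treated with indole-3-acetic acid and doxycycline (WT ID, CTCF degraded and replaced by the wild-type transgene). The other 9 lines each carried a transgene with 1 substitution and received both agents (R339Q, R342C, S354F, K365T, R377C, R377H, Q418R, R448Q and H455R). Treatment lasted 2 days, with 500 µM of the auxin and 1 µg/ml of doxycycline. All cells grew in serum with leukemia inhibitory factor, the GSK3 inhibitor CHIR99021 and the MEK inhibitor PD0325901. Each substitution is held by a line of its own, so the substitution and the line cannot be told apart.

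Myc, Mycn and Mycl are basic helix-loop-helix leucine zipper proteins that bind DNA as heterodimers with Max and activate genes of ribosome production, nucleotide synthesis and cell growth. Mxd1, Mxd3 and Mnt also pair with Max, bind the same E-box sites and recruit the Sin3 corepressor. In mouse embryonic stem cells Myc and Mycn together sustain proliferation, and Max is also a partner of Mga in a Polycomb complex that keeps germline genes silent. Myc is a known downstream gene of leukemia inhibitory factor and Wnt signalling in these cells.

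Recovered reads ranged from 27.8 M to 77.1 M per library (M, mega), and mitochondrial genes took 1.22% to 3.38% of them. Separate cultures are not stated for the 2 replicates, and p-values therefore reflect only how far these libraries spread, which may be technical. Pluripotency markers summed to between 8969 and 11650 TPM (a level scaled for gene length and library) in every library, with 0 of 10 under 1 TPM throughout. Marker sums of other types reached at most 22.4 TPM for primitive endoderm, 33.8 for mesendoderm, 12.9 for neural ectoderm, 104.5 for trophectoderm, 40.5 for fibroblasts and 6.82 for 2-cell-like cells. Single markers moved with the groups: 5 of 10 pluripotency markers rose in K365T (17.7% of all genes rose). In R448Q 5 rose and 3 fell (22.8% and 23.1% of all genes), and in H455R 1 rose and 4 fell (12.6% and 10.5%). Of 4 tested 2-cell-like markers 3 rose in WT IAA and in H455R (medians 2.48 and 2.54 on the log2 scale). Over all genes 9.96% rose in WT IAA and 12.6% in H455R. Of 3 tested fibroblast markers 2 rose in each comparison except Q418R (0) and R448Q (2 fell), and 1 fell in WT IAA. Where fibroblast markers rose, the share of all genes that rose was between 4.67% (R377C) and 17.7% (K365T). Of 3 tested trophectoderm markers 2 rose in Q418R, H455R and R377H, and 1 fell in R377H. Of 4 tested mesendoderm markers 2 rose in H455R and 2 in WT IAA, where 1 fell. In R377H 2 fell and 0 rose, and in Q418R 2 fell and 1 rose. Of 5 tested primitive endoderm markers 2 rose in WT IAA, R339Q, R342C and H455R. In R448Q 2 fell and 1 rose. Where 2 of these rose, 9.96% (WT IAA) to 14.4% (R377H) of all genes rose. Where 2 fell, 10.7% (R377H) to 23.1% (R448Q) of all genes fell. The part of these markers in the results below was not tested. Ctcf RNA, which the degron does not target, exceeded that of WT ID most in R448Q (log2 fold change 1.00 ± 0.06, SE) and H455R (0.73 ± 0.06). It was 0.25 below WT ID on the log2 scale in R342C, and between -0.15 and 0.22 from it in the other 7 groups. Whether transgene level had a part in the results below was not tested.

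All positions are from the mm10 (GRCm38) build with GENCODE M21. Myc lies on chromosome 15 (61985391 to 61990374, + strand), Mycn on chromosome 12 (12936093 to 12941914, - strand), and Mycl on chromosome 4 (122995652 to 123002485, + strand). Max is on chromosome 12 (76937269 to 76962201, - strand), far from Mycn. Mxd1 is on chromosome 6 (86647042 to 86669161, - strand), Mxd3 on chromosome 13 (55325168 to 55329823, - strand) and Mnt on chromosome 11 (74830920 to 74845725, + strand). The tables give 1 value per gene symbol and library. Mxd3 shares 105 bases with Prelid1 on the opposite strand, which stood at a mean of 152.5 TPM. The strand setting of the counting is not given in the sources used here, and Mxd3 values may include Prelid1 reads. Max and Mxd1 each contain a short uncharacterized transcript on the same strand.

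Promoters were found for 6 of the 7 genes in the RefSeq table of the GRCm38.p6 build. The sequences upstream of Mycn and Mnt are shown because these are the genes that differed between the lines with 2 substitutions of the same arginine (R377C and R377H). Both are read 5′ to 3′ on the gene's strand, with motif matches in capitals.
Mycn, chr12:12941907-12942086, - strand: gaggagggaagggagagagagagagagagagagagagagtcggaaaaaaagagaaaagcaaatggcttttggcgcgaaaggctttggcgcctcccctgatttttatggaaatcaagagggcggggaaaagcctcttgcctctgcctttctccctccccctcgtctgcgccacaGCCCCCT
Mnt, chr11:74830674-74830919, + strand: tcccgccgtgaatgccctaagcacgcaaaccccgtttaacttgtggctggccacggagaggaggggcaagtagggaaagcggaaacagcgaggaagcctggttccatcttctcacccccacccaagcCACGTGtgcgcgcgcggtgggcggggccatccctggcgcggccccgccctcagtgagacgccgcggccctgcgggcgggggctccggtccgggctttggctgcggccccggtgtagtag
The capitals in Mycn are AGGGGGC on the opposite strand, the G-rich middle of the CTCF consensus, starting 77 bases before the RefSeq start. They lie wholly inside the GENCODE gene, of which the printed sequence holds 8 bases. Within 250 bases upstream, 9.43% of 32817 promoters hold AGGGGGC on either strand. The capitals in Mnt are the E-box CACGTG, which reads the same on both strands, starting 123 bases before the RefSeq start. That E-box occurred in 6.02% of the same windows. The longer CTCF consensus core (2.07% of windows) was not found in the 250 bases before the RefSeq start of any of the 6 genes. Of these 250 bases, the GENCODE gene holds all 250 for Mycl, 92 for Mxd3 and 78 for Mycn. For Mycl the scan therefore does not cover sequence upstream of the GENCODE gene.

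Per unit of length, Max and Mnt were the highest of the 7 genes and Myc, Mxd1 and Mxd3 the lowest. Medians over the 22 treated libraries were 64.0 TPM for Mnt, 62.0 for Max, 29.3 for Mycn, 15.4 for Mycl, 8.33 for Mxd3, 7.46 for Myc and 6.10 for Mxd1. Mycn was above both Mycl and Myc in all 12 groups by mean TPM. The ratio of the highest to the lowest group mean of normalized counts was 4.86 for Myc, 2.62 for Mycl, 2.16 for Mxd1, 2.16 for Mycn, 1.58 for Mnt, 1.45 for Mxd3 and 1.45 for Max. The activator Myc spanned the widest range, and the shared partner Max was among the narrowest.

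**Figure D1:**
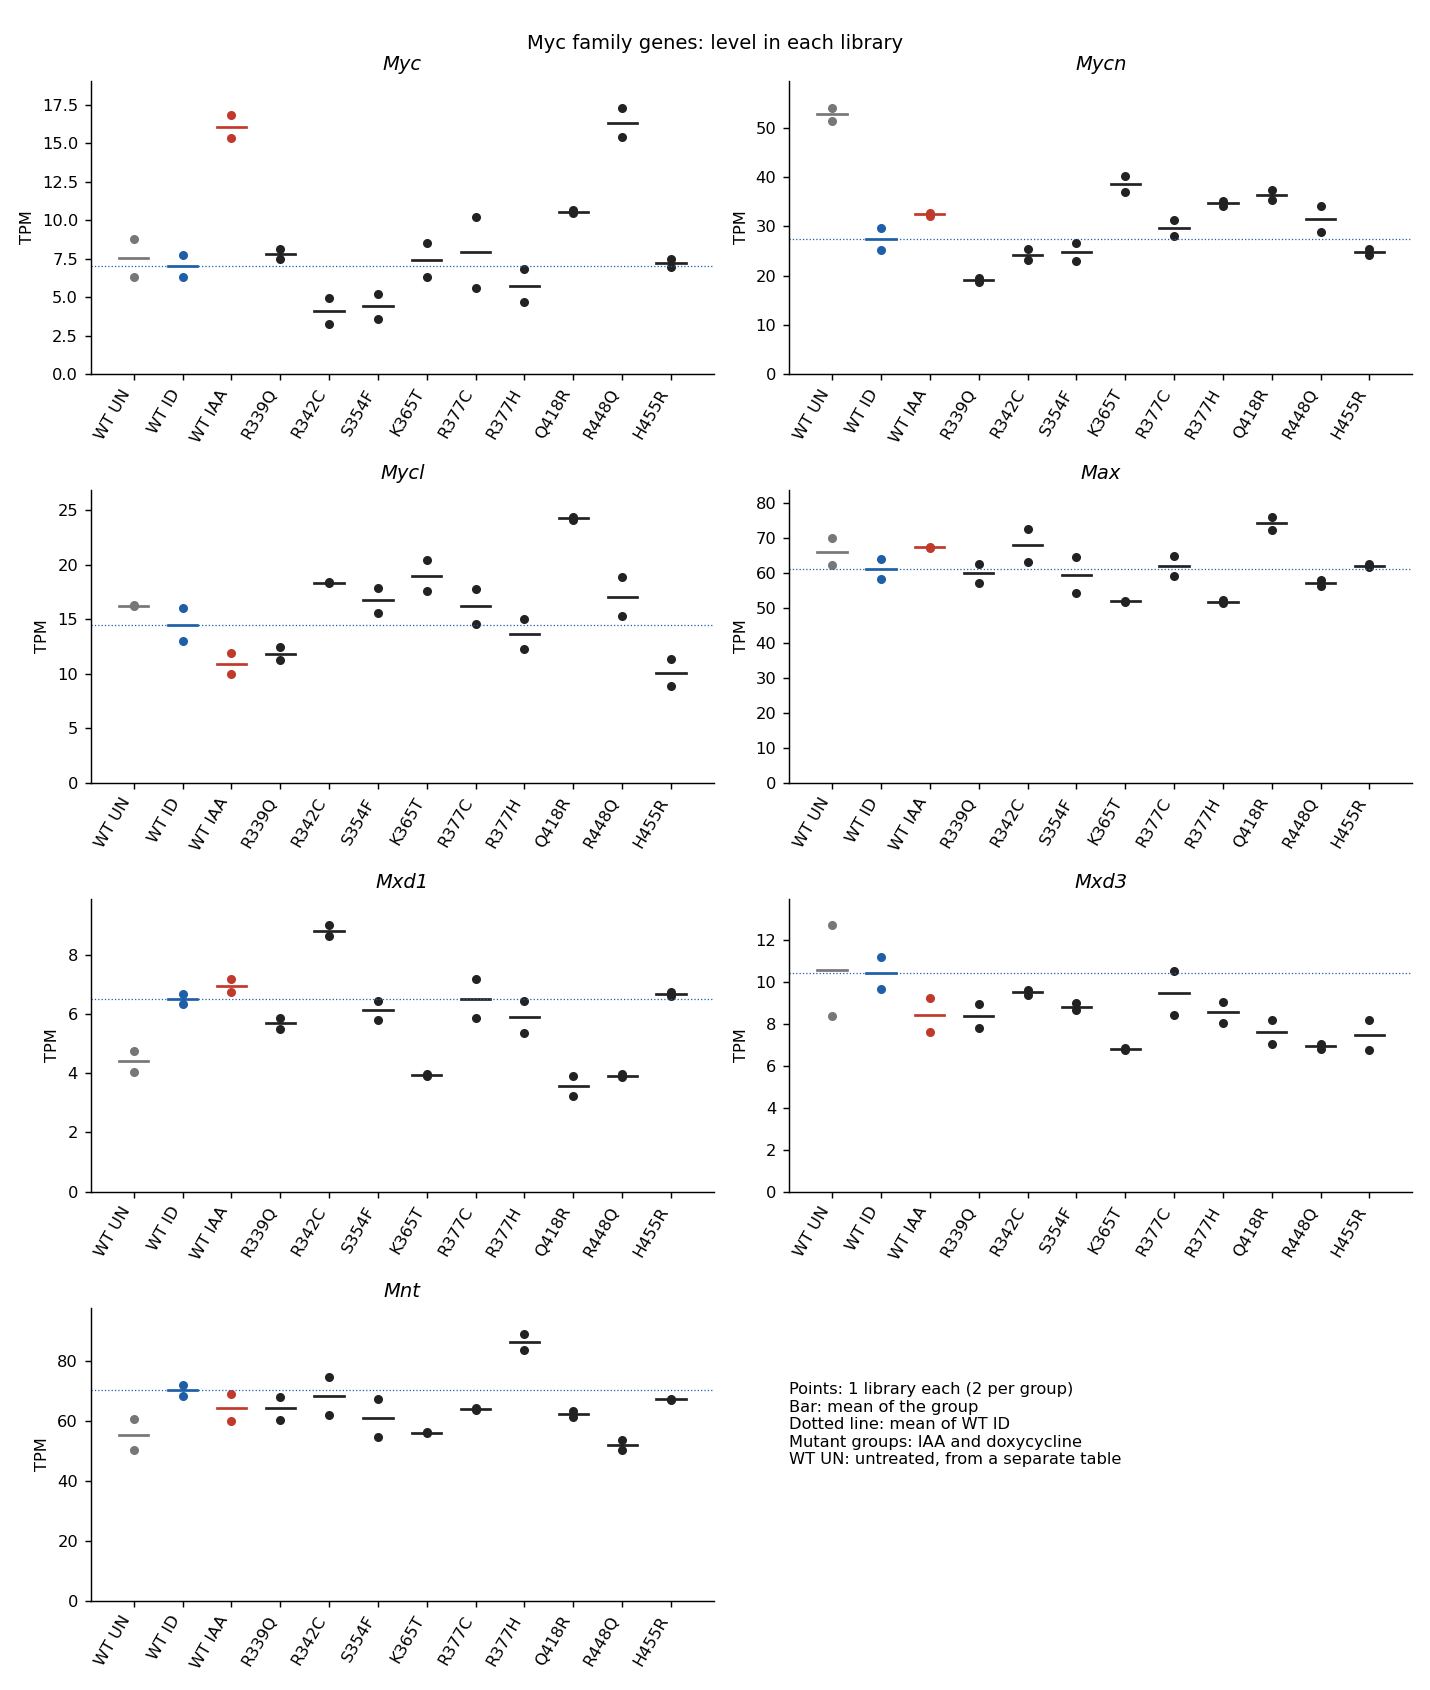
Level of each of the 7 genes in TPM (vertical axes, from 0) in 12 groups of 2 libraries; points are libraries, bars are group means and the dotted line is the mean of WT ID. Myc stood highest in WT IAA and R448Q, Mycn in WT UN, Mycl and Max in Q418R, Mxd1 in R342C and Mnt in R377H.

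Against WT ID, the 7 genes gave 70 tests in 10 comparisons, of which 26 passed at an adjusted p under 0.05 (limma, Benjamini-Hochberg over all genes tested): 13 rose and 13 fell. Over all genes tested, 23.4% of such tests passed. By comparison, the members that passed numbered 2 of 7 in WT IAA (20.7% of all genes), 1 in R339Q (21.5%), 3 in R342C (23.3%), 0 in S354F (9.80%) and 5 in K365T (32.0%). They numbered 0 in R377C (8.09%), 2 in H455R (23.1%), 2 in R377H (25.1%), 5 in Q418R (25.0%) and 6 in R448Q (45.8%). In S354F, 0 members passed by limma and by edgeR, 1 by DESeq2 (Myc) and 2 at limma's unadjusted p under 0.05. In R377C, 0 passed by each of limma, edgeR and DESeq2, and 0 at an unadjusted p under 0.05. All 10 comparisons share the WT ID libraries. In the test of any difference among the 11 treated groups (limma moderated F test), 6 of 7 members passed, against 78.1% of all genes. The exception was Mxd3 (limma adjusted p = 0.06).

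**Figure D2:**
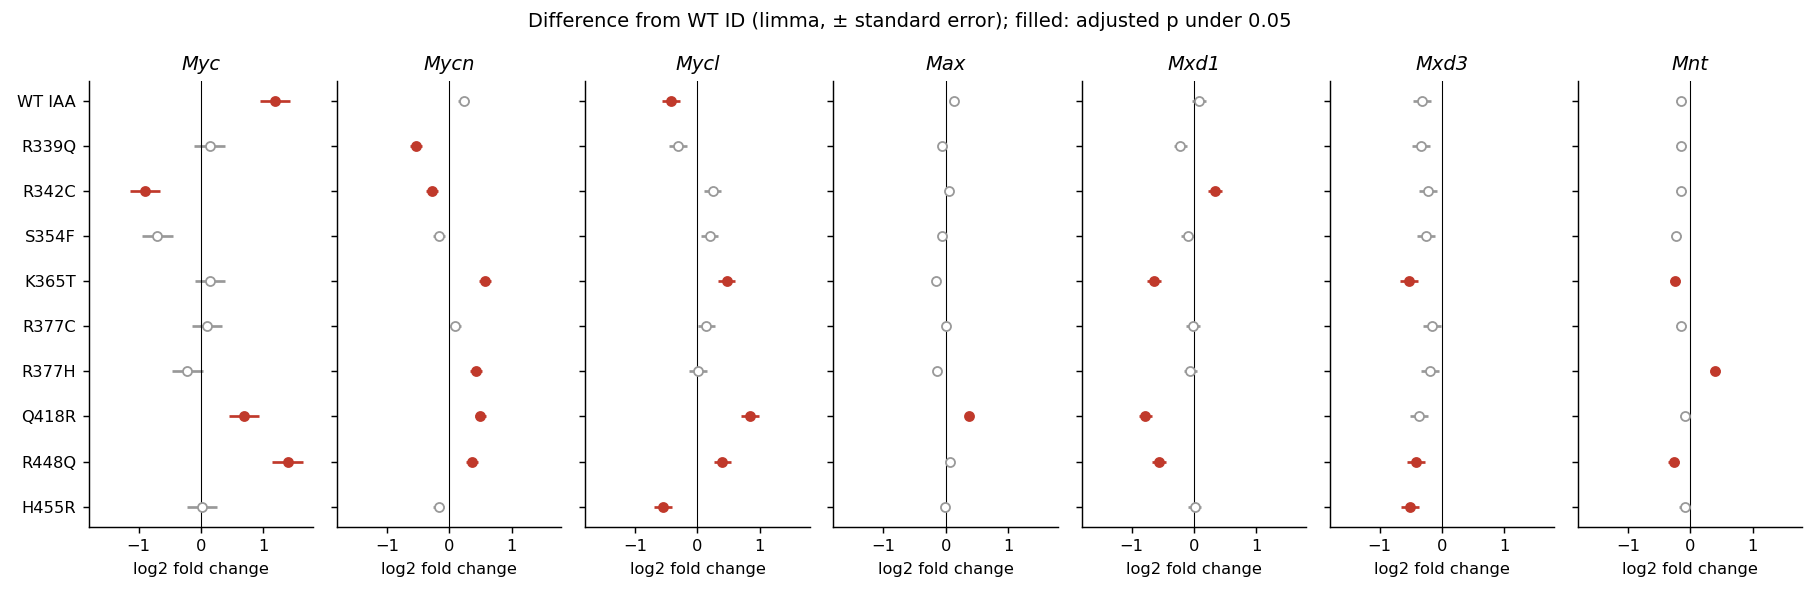
Log2 fold change against WT ID (horizontal axes, ± standard error) for the 7 genes in the 10 comparisons; filled points have a limma adjusted p under 0.05. Mycn and Mycl passed in both directions, Mxd3 passed only below 0, and Max passed only in Q418R.

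Myc RNA rose where CTCF was not replaced and in R448Q and Q418R, and fell in R342C. The WT ID libraries held 220.2 and 289 normalized counts, against 546 and 605 in WT IAA, a log2 fold change of 1.19 ± 0.24 (SE; 2.27-fold, limma adjusted p = 0.0019). R448Q held 624 and 703, a change of 1.39 ± 0.24 (2.62-fold, limma adjusted p = 0.0001). These 4 libraries lay above every other treated library. In bulk RNA, fewer expressing cells and less RNA per cell cannot be told apart, here and below. Q418R held 391 and 423 and was higher than WT ID by 0.69 ± 0.24 on the log2 scale (limma adjusted p = 0.045). R342C held 159 and 114, -0.90 ± 0.24 from WT ID (limma adjusted p = 0.012), and its libraries did not overlap those of WT ID. S354F was nearly as low at 131 and 182 but did not pass (-0.70 ± 0.24, limma adjusted p = 0.077). The Q418R call was lost on TPM (0.59, adjusted p = 0.13), with no filter on low counts (0.69, adjusted p = 0.093), without Q418R replicate 1 (0.74, adjusted p = 0.11), without Q418R replicate 2 (0.63, adjusted p = 0.16) and without WT ID replicate 1 (0.49, adjusted p = 0.3). The R342C call was lost on TPM (-0.79, adjusted p = 0.058), without R342C replicate 2 (-0.66, adjusted p = 0.11) and without WT ID replicate 2 (-0.71, adjusted p = 0.14).

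In TPM, the order of Myc over all 12 groups ran from R448Q (16.3 ± 1.36, SD, n = 2) and WT IAA (16.1 ± 1.02), which overlapped, to Q418R (10.6 ± 0.149). Below these came a run of neighbours that overlapped in turn: R377C (7.89), R339Q (7.80), WT UN (7.52), K365T (7.41), H455R (7.20), WT ID (7.004), R377H (5.73), S354F (4.39) and R342C (4.08). The 2 R377C libraries stood apart, at 10.2 and 5.57 TPM.

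Myc stands alone on chromosome 15: its nearest tested neighbour apart from the noncoding gene Pvt1 is 990.3 kb away. Pvt1 begins 47.6 kb after Myc, and the 2 genes are known to share enhancers. Pvt1 held 267 and 267 normalized counts in WT ID and 449 and 455.01 in WT IAA, where it rose with Myc (0.76 ± 0.21, limma adjusted p = 0.013). It also rose in Q418R (0.72 ± 0.21, limma adjusted p = 0.015). In R342C, where Myc fell, Pvt1 rose (0.76 ± 0.21, limma adjusted p = 0.012) to 486 and 423. In R448Q, where Myc rose most, Pvt1 stood at 209.7 and 184 and did not pass (-0.44 ± 0.21, limma adjusted p = 0.09). The 2 genes passed in the same direction in 2 groups and in opposite directions in 1.

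Mycn, the family member with the highest level among the activators, rose in 4 mutant lines and fell in 2. WT ID held 1256 and 1147 normalized counts. K365T held 1704 and 1878 (0.58 ± 0.09, limma adjusted p = 0.00011) and Q418R 1606 and 1798 (0.50 ± 0.09, limma adjusted p = 0.00051). R377H held 1589 and 1655 (0.43 ± 0.09, limma adjusted p = 0.0017) and R448Q 1680 and 1423 (0.36 ± 0.09, limma adjusted p = 0.0032). All 8 of these libraries lay above both WT ID libraries. R339Q was the lowest group at 839 and 818 (-0.53 ± 0.09, limma adjusted p = 0.00037). R342C was lower by less (999 and 987; -0.27 ± 0.09, limma adjusted p = 0.04). WT IAA, at 1414 and 1405, was above WT ID in both libraries without passing (0.23 ± 0.09, limma adjusted p = 0.087). Of the 6 calls, that in R448Q was lost on TPM (0.20, adjusted p = 0.12) and without R448Q replicate 1 (0.25, adjusted p = 0.086). The R342C call was lost without any 1 of its 4 libraries (limma adjusted p from 0.067 without WT ID replicate 2 to 0.25 without WT ID replicate 1). It was also lost on TPM (-0.17, adjusted p = 0.26), after quantile normalization (-0.25, adjusted p = 0.054), with no filter on low counts (-0.27, adjusted p = 0.08), with edgeR (-0.25, adjusted p = 0.059) and when only the compared groups were fitted (-0.27, adjusted p = 0.092).

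Among the 7 genes Mycn differed most clearly between groups, with an F value of 29.5 that ranked 1049 among 18713 genes. The 6 nearest tested genes of Mycn lie 275.1 kb or more away. Of these 6, 1 fell and 1 rose in R339Q, and 3 fell and 1 rose in R342C. In K365T and R377H, where Mycn rose, 1 fell and 0 rose. In R448Q 2 fell and 2 rose, and in Q418R 0 passed. Ddx1, the nearest, passed in R339Q (-0.27 ± 0.08) and R342C (-0.27 ± 0.08), both times below WT ID like Mycn itself. Ddx1 did not pass in K365T (0.14 ± 0.08), Q418R (0.08 ± 0.08), R377H (0.10 ± 0.08) or R448Q (0.19 ± 0.08).

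Mycl rose in Q418R, K365T and R448Q and fell in H455R and WT IAA. WT ID held 829.5 and 726 normalized counts and Q418R 1341 and 1439 (0.84 ± 0.14, 1.79-fold, limma adjusted p = 0.0002), the highest of the 22 treated libraries. K365T held 987 and 1167 (0.47 ± 0.14, limma adjusted p = 0.016) and R448Q 1136 and 923 (0.40 ± 0.14, limma adjusted p = 0.026). H455R was the lowest group at 477 and 586 (-0.55 ± 0.14, limma adjusted p = 0.0073), and WT IAA held 627 and 536 (-0.42 ± 0.14, limma adjusted p = 0.041). On loss of CTCF without replacement, Myc rose and Mycl fell. The K365T call was lost on TPM (0.39, adjusted p = 0.075), without K365T replicate 2 (0.35, adjusted p = 0.15) and without WT ID replicate 2 (0.37, adjusted p = 0.14), and that in H455R without H455R replicate 1 (-0.40, adjusted p = 0.12) and without WT ID replicate 1 (-0.46, adjusted p = 0.093). The R448Q call was lost on TPM (0.23, adjusted p = 0.25), with no filter on low counts (0.40, adjusted p = 0.057), without R448Q replicate 1 (0.25, adjusted p = 0.27) and without WT ID replicate 2 (0.30, adjusted p = 0.19). The WT IAA call was lost on TPM (-0.40, adjusted p = 0.094), after quantile normalization (-0.35, adjusted p = 0.081), with no filter on low counts (-0.42, adjusted p = 0.087), after centring on the nearest genes (-0.38, adjusted p = 0.054), without WT IAA replicate 2 (-0.31, adjusted p = 0.3), without WT ID replicate 1 (-0.32, adjusted p = 0.26) and without WT ID replicate 2 (-0.52, adjusted p = 0.065).

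The summed TPM of Mycn, Mycl and Myc gives the total level of the 3 activators. The sum was 49.0 ± 4.28 TPM in WT ID (SD, n = 2) and 59.5 ± 0.747 in WT IAA. It was 71.1 ± 1.79 in Q418R, 65.0 ± 2.66 in K365T and 64.9 ± 4.85 in R448Q, and 38.8 ± 1.88 in R339Q and 42.1 ± 2.38 in H455R. The highest sum was that of untreated cells, at 76.6 ± 0.205. Myc made up 27.0% ± 2.06 of the sum in WT IAA and 25.3% ± 3.997 in R448Q, against 14.4% ± 3.27 in WT ID and 8.67% ± 2.06 in R342C. Mycn made up between 48.5% (R448Q) and 69.0% (WT UN). No test was made on the sums.

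**Figure D3:**
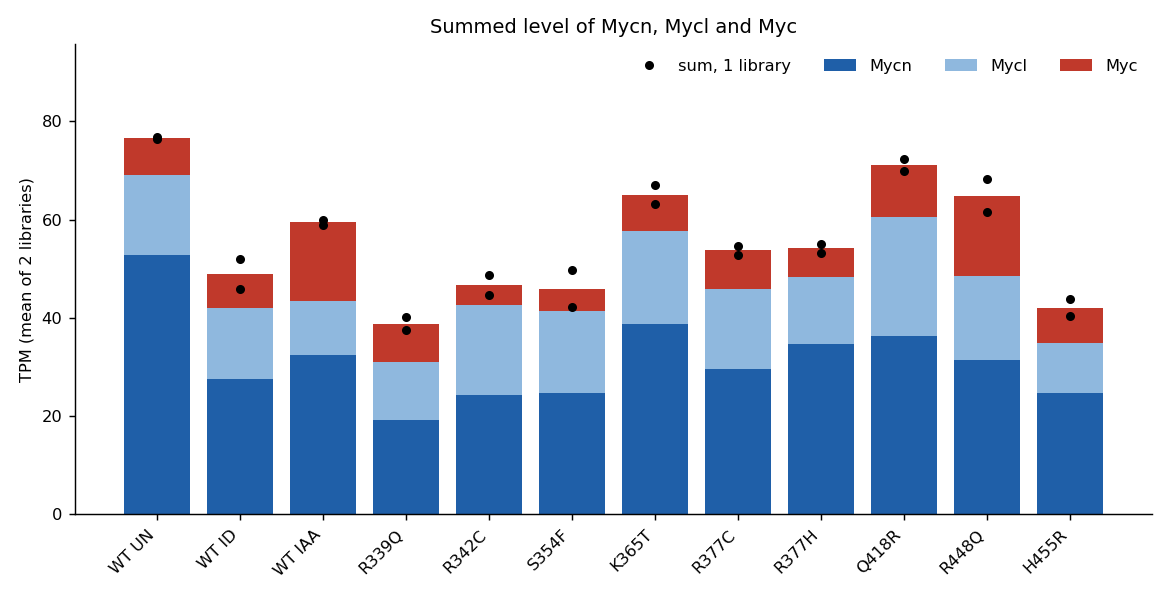
Mean TPM of Mycn, Mycl and Myc stacked for each of 12 groups (vertical axis from 0); black points are the sums of single libraries, 2 per group. WT UN and Q418R have the highest stacks, R339Q the lowest, and the Myc share is widest in WT IAA and R448Q.

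Untreated cells held more Mycn RNA than both treated WT groups. The untreated table was scaled separately, so only TPM were compared, with no test. Mycn stood at 54.2 and 51.5 TPM in WT UN, 29.7 and 25.2 in WT ID and 32.8 and 32.2 in WT IAA. The mean in WT UN was 1.92-fold that of WT ID (log2 ratio 0.94, where the median over 17138 genes was -0.18), higher than 97.6% of genes. Against WT IAA it was 1.62-fold (log2 ratio 0.70, median -0.17). Myc stood at 6.29 and 8.74 TPM in WT UN, overlapping WT ID (6.31 and 7.70) and below WT IAA (15.3 and 16.8). Mycl was 16.3 and 16.2 in WT UN, above WT ID (16.0 and 13.02) and above WT IAA (11.9 and 9.999).

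Of the repressors, Mxd1 was lower in untreated cells, at 4.75 and 4.05 TPM against 6.66 and 6.34 in WT ID and 6.76 and 7.17 in WT IAA. The log2 ratio of Mxd1 to WT ID was -0.55 on TPM (median over all genes -0.18), higher than 23.4% of genes. On TMM-scaled reads it was -0.40. Against WT IAA the log2 ratio on TPM was -0.65 (median -0.17). Mnt was 60.5 and 50.2 in WT UN, below WT ID (72.0 and 68.3) and overlapping WT IAA (59.9 and 68.8). Its log2 ratio to WT ID changed from -0.34 on TPM to -0.18 on TMM-scaled reads, with the same sign. Max (69.8 and 62.3) and Mxd3 (12.7 and 8.41) overlapped WT ID. Libraries without overlap were found for 4 of 7 members against WT ID (69.1% of all genes) and 4 of 7 against WT IAA (72.5%), shares that do not exceed the background.

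Max, the obligate partner of both activators and repressors, passed only in Q418R. It held 2950 and 2885 normalized counts in WT ID and 3773 and 3801 in Q418R, 0.38 ± 0.06 on the log2 scale (1.30-fold, limma adjusted p = 0.00024). The Q418R libraries were the 2 highest of the 22 treated ones. The lowest Max group was K365T at 2609 and 2628, which did not pass (-0.16 ± 0.06, limma adjusted p = 0.073). On TPM, K365T passed below WT ID (-0.23, limma adjusted p = 0.047). In TPM the group means ran from 74.2 ± 2.63 in Q418R, overlapping R342C (67.8), down to 51.7 ± 0.543 in R377H. Every neighbouring group overlapped except R448Q (57.0) and K365T (51.8).

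Mxd1, a repressor best known for rising as cells differentiate, fell in 3 of the lines where Mycn rose. WT ID held 605 and 619 normalized counts. Q418R held 381 and 334 (-0.78 ± 0.11, limma adjusted p = 2.7e-05), K365T 385 and 399 (-0.64 ± 0.11, limma adjusted p = 0.00016) and R448Q 408 and 419 (-0.56 ± 0.11, limma adjusted p = 0.00025). These 6 libraries were the lowest 6 of the 22. In R377H, where Mycn also rose, Mxd1 held 641 and 540.1 and did not pass (-0.06 ± 0.11, limma adjusted p = 0.75). In R342C, where Myc and Mycn fell, Mxd1 rose to 756 and 791 (0.34 ± 0.11, limma adjusted p = 0.029), the 2 highest libraries. The R342C call was lost without any 1 of its 4 libraries (limma adjusted p from 0.077 without R342C replicate 1 to 0.13 without WT ID replicate 1) and when only the compared groups were fitted (0.34, limma adjusted p = 0.062).

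Other genes of chromosome 6 were also low in Q418R. The median log2 fold change of 956 tested genes on chromosome 6 in Q418R was -0.46 relative to all genes, and 18.5% of them were above 0. Among the 6 nearest tested genes of Mxd1, 3 fell in Q418R, including Snrnp27 (-0.65 ± 0.09), a splicing factor gene 5.99 kb away, and Pcbp1 (-0.54 ± 0.07). After centring on its chromosome Mxd1 was at -0.31 (limma adjusted p = 0.045). After centring on the 50 tested genes on each side it was at -0.27 and no longer passed (limma adjusted p = 0.091). In K365T, 3 of the 6 nearest genes also fell, among them 1600020E01Rik (-0.68 ± 0.17) and Asprv1 (-1.20 ± 0.35). The Mxd1 differences in K365T and R448Q were -0.48 (limma adjusted p = 0.003) and -0.35 (limma adjusted p = 0.015) after the same centring.

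Mxd3, a repressor expressed in dividing cells, was below WT ID in all 10 comparisons and passed in 3. WT ID held 341.61 and 317 normalized counts, K365T 224 and 230.4 (-0.53 ± 0.14, limma adjusted p = 0.0077) and H455R 215 and 248 (-0.51 ± 0.14, limma adjusted p = 0.014). R448Q held 250.1 and 242 (-0.42 ± 0.14, limma adjusted p = 0.023). These comparisons share the WT ID libraries, so a common direction is not independent evidence. Without WT ID replicate 1 none of the 3 passed: K365T was then at -0.48 (limma adjusted p = 0.069), R448Q at -0.36 (0.13) and H455R at -0.46 (0.11). The H455R call was also lost without H455R replicate 1 (-0.41, adjusted p = 0.14). That in R448Q was also lost without R448Q replicate 1 (-0.44, adjusted p = 0.067), without R448Q replicate 2 (-0.39, adjusted p = 0.1), after quantile normalization (-0.29) and after centring on the nearest genes (-0.33). Prelid1, whose reads may enter, passed in K365T (-0.22 ± 0.07), below WT ID, and not in R448Q (0.15 ± 0.07) or H455R (-0.11 ± 0.07).

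Mnt, the broadly expressed repressor of the family, rose in R377H and fell in K365T and R448Q. WT ID held 4279 and 4365 normalized counts and R377H 5470 and 5862 (0.39 ± 0.08, limma adjusted p = 0.0013), the 2 highest of the 22 treated libraries. K365T held 3620 and 3659 (-0.25 ± 0.08, limma adjusted p = 0.025) and R448Q 3471 and 3710 (-0.27 ± 0.08, limma adjusted p = 0.011). The K365T call was lost without any 1 of its 4 libraries (limma adjusted p from 0.073 without K365T replicate 2 to 0.12 without WT ID replicate 2) and with no filter on low counts (-0.25, limma adjusted p = 0.056). The R448Q call was lost without R448Q replicate 1 (-0.22, adjusted p = 0.1) and without WT ID replicate 2 (-0.25, adjusted p = 0.061).

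The Mnt increase in R377H stood beside an increase of its surroundings. Chromosome 11 as a whole was higher in that line: the median of 1375 tested genes was 0.54 relative to all genes, and 89.0% were above 0. The same median was 0.38 in K365T and 0.15 in R448Q. Of the 6 nearest tested genes of Mnt, 5 rose in R377H, among them Mettl16 (0.85 ± 0.08), an RNA methyltransferase gene 2.40 kb away, and Sgsm2 (0.61 ± 0.09). After centring on the chromosome the R377H difference of Mnt turned to -0.14 (limma adjusted p = 0.22), and after centring on the nearest genes to -0.22 (limma adjusted p = 0.053). The K365T difference grew to -0.61 (limma adjusted p = 1.5e-05) after centring on the chromosome. Relative to chromosome 11, Mnt was below WT ID in every group, and passed in R339Q (-0.24, limma adjusted p = 0.034), K365T and R448Q (-0.40, limma adjusted p = 0.00045).

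**Figure D4:**
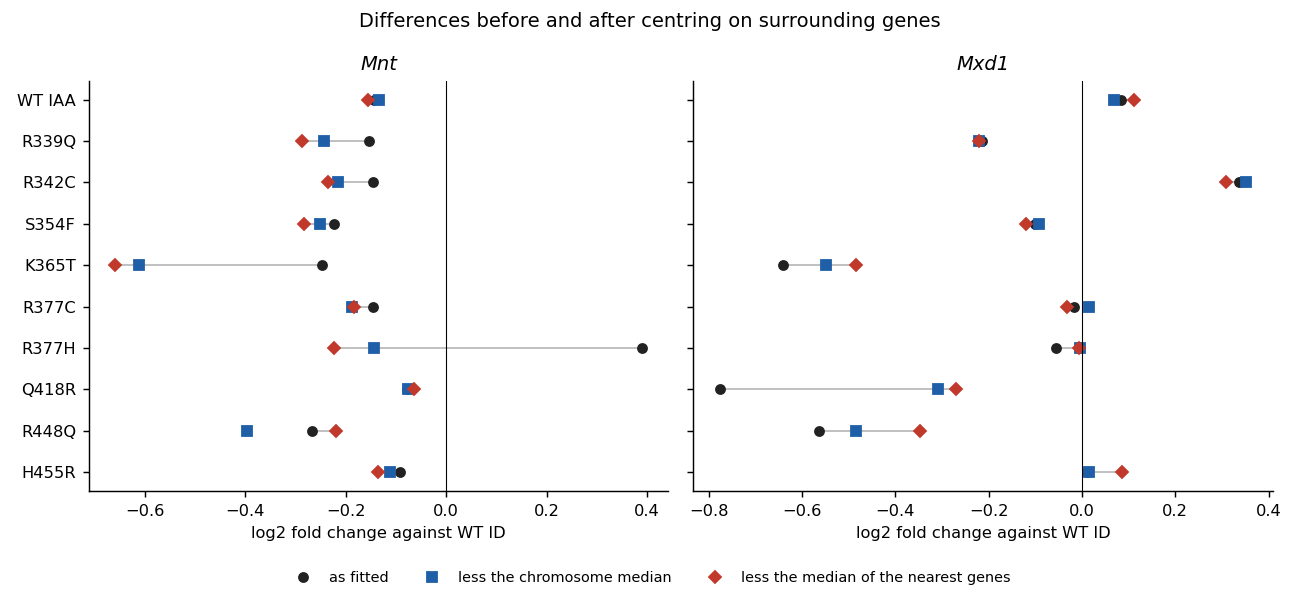
Log2 fold change against WT ID (horizontal axes) of Mnt and Mxd1 in 10 comparisons as fitted (circles), less the median of the chromosome (squares) and less the median of the nearest 50 tested genes on each side (diamonds). In R377H, Mnt moves from 0.39 to below 0, and in Q418R, Mxd1 moves from -0.78 to -0.27.

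The 2 lines with substitutions of the same arginine differed in Mycn and Mnt, 2 of 7 members (19.0% of all genes passed). Mycn held 1200 and 1379 normalized counts in R377C and 1589 and 1655 in R377H, a difference of -0.33 ± 0.09 for R377C minus R377H (limma adjusted p = 0.016). Mnt held 3876 and 3933 in R377C and 5470 and 5862 in R377H (-0.54 ± 0.08, limma adjusted p = 8.3e-05). After centring on the chromosome the Mnt difference was -0.04 (limma adjusted p = 0.76), and on the nearest genes 0.04. The Mycn difference was lost on TPM (-0.23, adjusted p = 0.13), without R377C replicate 1 (-0.23, adjusted p = 0.21) and without R377H replicate 2 (-0.30, adjusted p = 0.12).

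Of the 6 other proteins of the network, Mlx, a Max-like partner on chromosome 11, rose in 6 of 10 comparisons. The largest were in R448Q (1.08 ± 0.09, limma adjusted p = 7.3e-09), R377H (0.85 ± 0.09, limma adjusted p = 4.6e-07) and K365T (0.80 ± 0.09, limma adjusted p = 1.2e-06). All 3 passed after centring on chromosome 11, at 0.95, 0.32 and 0.44. Mxd4, a further Max-binding repressor, rose in H455R (1.35 ± 0.18), WT IAA (0.94 ± 0.18) and R339Q (0.83 ± 0.18), and fell in Q418R (-0.84 ± 0.18) and R448Q (-0.49 ± 0.18). Its Q418R value was -0.26 after centring on the nearest genes (limma adjusted p = 0.33). Mxi1, another of that class, rose in WT IAA (0.41 ± 0.07) and Q418R (0.22 ± 0.07) and fell in R448Q (-0.53 ± 0.07). Mlxipl, the glucose-responsive partner of Mlx, fell in R448Q (-2.16 ± 0.19) and rose in R377H (0.98 ± 0.19) and S354F (0.73 ± 0.19). By limma, Mlxip passed in WT IAA (-0.23 ± 0.08) and in no other comparison with WT ID, and on TPM also in Q418R (adjusted p = 0.042). Mga passed in no comparison with WT ID by limma, and in R377H by DESeq2 (adjusted p = 0.038). Between R377C and R377H 3 of these 6 genes passed, all lower in R377C (19.0% of all genes passed). Among them were Mlx (-0.73 ± 0.09, limma adjusted p = 5.1e-06) and Mga (-0.33 ± 0.08, limma adjusted p = 0.0048). Mlx was at -0.24 after chromosome centring (limma adjusted p = 0.056), and Mga at -0.22 on TPM (limma adjusted p = 0.087). Some of these calls were lost without 1 library. That of Mlx in R339Q and that of Mxi1 in Q418R were lost without any 1 of their 4 libraries (limma adjusted p up to 0.21 and 0.17). That of Mlx in Q418R was lost without Q418R replicate 2 (limma adjusted p = 0.15), WT ID replicate 1 (0.066) or WT ID replicate 2 (0.11). That of Mxd4 in R448Q was lost without WT ID replicate 1 (limma adjusted p = 0.31), R448Q replicate 1 (0.16) or R448Q replicate 2 (0.054), and that in R339Q without WT ID replicate 2 (0.051). That of Mlxipl in S354F was lost without S354F replicate 2 (limma adjusted p = 0.19), WT ID replicate 2 (0.14) or WT ID replicate 1 (0.06). That of Mlxip in WT IAA was lost without WT IAA replicate 2 (limma adjusted p = 0.44), WT ID replicate 1 (0.29) or WT ID replicate 2 (0.052). On TPM the calls of Mlx in R339Q and Q418R, Mxi1 in Q418R, Mlxipl in S354F and Mlxip in WT IAA were lost (limma adjusted p = 0.053, 0.18, 0.35, 0.071 and 0.16). With these added, R448Q was the line in which most of the Max and Mlx network moved: Myc, Mycn, Mycl and Mlx rose, and Mxd1, Mxd3, Mnt, Mxd4, Mxi1 and Mlxipl fell. It was also the line with the highest share of all genes passing, as given above.

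Ribosome biogenesis genes are classical targets of Myc and Mycn, and 33 of them were listed and tested. In R342C, where both activators fell, 24 of 33 fell and 0 rose, with a median log2 fold change of -0.30; over all genes 13.3% fell and 10.0% rose. In R448Q, where Myc, Mycn and Mycl rose, 16 rose and 1 fell (median 0.23; 22.8% of all genes rose and 23.1% fell). In K365T 12 rose and 2 fell (median 0.15; 17.7% rose and 14.2% fell). In H455R, in which no activator but Mycl fell, 13 fell and 1 rose (median -0.17; 10.5% fell and 12.6% rose). The median of all genes tested was between -0.03 and 0.01 in every comparison.

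The other 6 comparisons held fewer changes in this list. In WT IAA, where Myc rose 2.27-fold, 6 rose and 1 fell (median 0.07; 9.96% of all genes rose and 10.7% fell). In Q418R 6 rose and 2 fell (median 0.08; 11.2% and 13.8%), and in R377H 3 rose and 2 fell (median 0.04; 14.4% and 10.7%). In R339Q, the line with the lowest Mycn, 1 rose and 5 fell (median -0.11; 11.8% and 9.70%). In S354F 0 rose and 5 fell (median -0.13; 5.49% and 4.31%), and in R377C 0 rose and 1 fell (median -0.04; 4.67% and 3.43%). Leaving out 1 library, the count that fell in R342C ranged from 13 (without R342C replicate 1) to 28. The count that fell in R339Q was then 1 to 2 (lowest without R339Q replicate 1) and that in S354F 1 to 3 (lowest without WT ID replicate 1). The count in H455R was 6 to 7, lowest without WT ID replicate 1, and the count that rose in WT IAA was 1 to 2, also lowest without WT ID replicate 1. On TPM, 11 fell in R342C, where 963 of all 18713 genes fell. In R448Q 10 rose and 8 fell on TPM, against 2734 and 6026 of all 18713 genes. TPM moved the median of all genes by -0.17 in R448Q.

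By name, Ncl, the nucleolin gene, rose in R448Q (1.09 ± 0.11), K365T (0.60 ± 0.11) and Q418R (0.49 ± 0.11) and fell in R342C (-0.33 ± 0.11). Npm1, encoding nucleophosmin, rose in R448Q (0.97 ± 0.14), R377H (0.61 ± 0.14) and K365T (0.59 ± 0.14). Values of the named genes are as fitted, before centring, and include any shift of a gene's chromosome. For chromosome 11 the median relative to all genes was 0.54 in R377H and 0.38 in K365T. Ddx18, an RNA helicase gene, rose in R448Q (0.93 ± 0.07), K365T (0.52 ± 0.07) and Q418R (0.34 ± 0.07). It fell in S354F (-0.49 ± 0.07), R342C (-0.30 ± 0.07), R339Q (-0.29 ± 0.07) and H455R (-0.22 ± 0.07). Nop58, a core protein of box C/D particles, rose in R448Q (0.74 ± 0.09), Q418R (0.37 ± 0.09), WT IAA (0.30 ± 0.09) and K365T (0.28 ± 0.09).

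Growth and metabolism targets, 36 tested of 37 listed, moved in both directions. In R342C 10 fell and 2 rose (median -0.18), in K365T 12 rose and 5 fell (median 0.03), and in R448Q 12 rose and 11 fell (median 0.14). Over all genes 13.3% fell and 10.0% rose in R342C, 17.7% rose and 14.2% fell in K365T, and 22.8% rose and 23.1% fell in R448Q. Leaving out 1 library, the count that fell in R342C became 5 (without WT ID replicate 1) to 11, the count that rose in K365T 7 (without WT ID replicate 2) to 10, and the count that fell in R448Q 5 (without R448Q replicate 2) to 7. In WT IAA 3 rose and 6 fell (9.96% and 10.7% of all genes), the 3 becoming 0 without WT ID replicate 1. The falls included Mthfd2, of mitochondrial one-carbon metabolism (-1.06 ± 0.15), and the glutamine transporter gene Slc1a5 (-1.02 ± 0.11). Slc1a5 also fell in R448Q (-0.72 ± 0.11), while Eif4e, the cap-binding translation factor gene, rose there (1.03 ± 0.09). Ccnd2, the cyclin D2 gene, rose in 7 of 10 comparisons, up to 1.61 ± 0.22 in R342C, where Myc fell. Of 8 genes known to be repressed by Myc, 4 rose and 0 fell in R342C (median 0.47), 4 rose and 1 fell in WT IAA, where Myc itself rose, and 1 rose and 4 fell in R448Q (median -0.28). Gata6, also a primitive endoderm marker, was among those that rose in R342C (0.90 ± 0.26) and fell in R448Q (-1.10 ± 0.26). Cebpa, a differentiation factor gene, rose in 8 of 10 comparisons, up to 2.18 ± 0.42 in R377H. Cdkn1b, the p27 cell cycle inhibitor gene, fell in 7 and most in Q418R (-0.96 ± 0.10). That value is as fitted, before centring, and includes any shift of the gene's chromosome. For chromosome 6 the median in Q418R was -0.46 relative to all genes. Ndrg2, a growth suppressor gene, fell most in R448Q (-1.36 ± 0.09). The 4 genes that rose in R342C became 0 without WT ID replicate 2, and the 4 in WT IAA became 1 without WT IAA replicate 1. Summed primitive endoderm markers were between 2.58 and 22.4 TPM, and their part in the Gata6 result was not tested.

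Germline genes that Max keeps silent with Mga, 15 listed and tested, passed above WT ID in different numbers by line. The counts that rose were 12 in R377H (median 0.97; 14.4% of all genes rose), 11 in K365T (median 0.93; 17.7%), 9 in R448Q (22.8%), 8 in S354F (5.49%) and 7 in R377C (4.67%). They were 6 in R342C (10.0%), 5 in R339Q (11.8%), 5 in Q418R (11.2%), 4 in H455R (12.6%) and 2 in WT IAA (9.96%), the last close to the share of all genes, and at most 2 fell in any comparison. Meioc, a meiotic entry gene on this list, rose in all 10 comparisons, from 0.53 ± 0.17 in R448Q to 2.53 ± 0.17 in R377H. The 10 comparisons share the WT ID libraries and are not independent. Values of the genes named from this list are as fitted, before centring, and include any shift of a gene's chromosome. For chromosome 11 the median relative to all genes was 0.54 in R377H and 0.38 in K365T. Tex101, a germ cell surface gene, rose in 9, up to 2.34 ± 0.28 in Q418R. Tdrkh, a Piwi pathway gene, rose in 7, up to 1.98 ± 0.24 in R448Q, and Slc25a31, a testis nucleotide carrier gene, rose in R448Q (1.96 ± 0.32) and K365T (1.71 ± 0.32). Max held its lowest group levels in R377H and K365T, at -0.15 ± 0.06 against WT ID in R377H (limma adjusted p = 0.11) and -0.16 ± 0.06 in K365T (limma adjusted p = 0.073). On TPM the adjusted p by limma was 0.053 in R377H and 0.047 in K365T. The part of Max level in the germline counts was not tested. The count that rose in R377C became 4 without R377C replicate 2, that in R339Q 3 without R339Q replicate 2, and that in H455R 2 without H455R replicate 2.

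**Figure D5:**
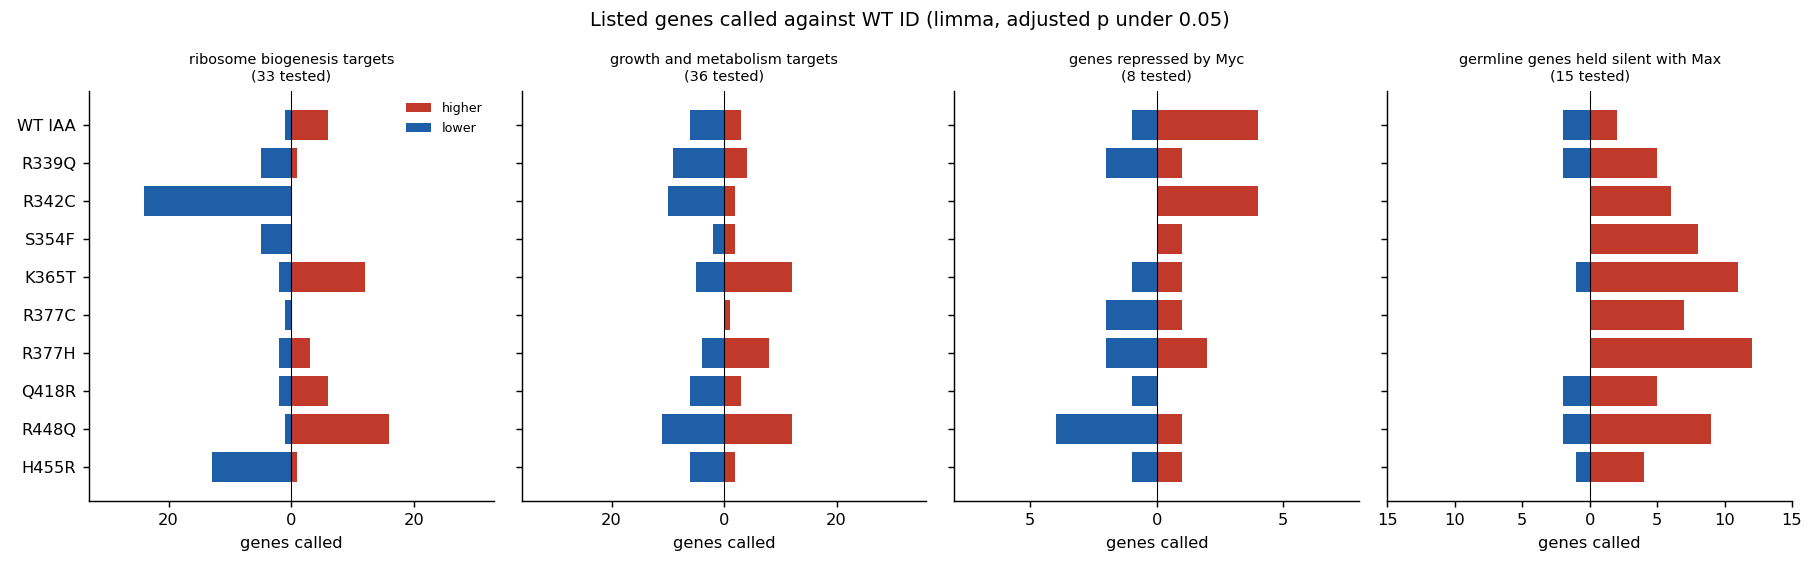
Number of listed genes above (right, red) and below (left, blue) WT ID with a limma adjusted p under 0.05, for 4 lists in 10 comparisons. Ribosome biogenesis targets extend furthest to the left in R342C (24 of 33) and to the right in R448Q (16), and germline genes extend to the right in R377H (12 of 15).

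The genes whose group means followed each member most closely are given as a description only, since the 11 group means share the same lines and libraries and 12400 genes were compared. For Myc these were Rdh10 (Pearson r = 0.98), Abcc12 (0.95) and Ddx51 (0.94). For Mycn they were Ctps (0.95), which encodes CTP synthase and stands in the growth list, Zfp869 (0.93) and Wdr36 (0.93). For Mycl they were Orc4 (0.96), Rars2 (0.94) and Prrg1 (0.94), and for Max Frs2 (0.92), Snord53 (0.90) and Rbm4 (0.90). For Mxd1 they were Grcc10 (0.94), also on chromosome 6, Abcg1 (0.90) and Rab14 (0.90). For Mxd3 they were Hinfp (0.81), Socs2 (0.80) and Tchp (0.80), and for Mnt Map1b (0.91), Six4 (0.89) and Slc35f2 (0.87).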

How the data were processed

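RNA-seq of 24 libraries was used. Trim Galore, STAR, DESeq2 and the mm10 build were used by the authors, per the submitters' processing notes; no version is given there. Normalized counts as deposited (a signal scaled by size factors, 22 treated libraries in one table and WT UN in another) were divided back into whole reads within 0.0011 of a normalized count. TPM, also as deposited by the authors, served for levels between genes and for WT UN. Groups were compared with limma 3.58.1 (R 4.3.3) on log2(normalized count + 1) for genes with a mean of at least 10, with 1 coefficient per group, 11 residual and 8.13 prior degrees of freedom, and Benjamini-Hochberg adjustment within each comparison. A call is an adjusted p under 0.05. edgeR 4.0.16 and DESeq2 1.42.0 on the recovered reads were alternatives. The method was tested on simulated data. Fold changes on this scale understate the change of low genes. Replicate numbers did not pair the samples (55 pairs of groups, correlations from -0.248 to 0.382, 10 over 0.1), so the replicate number was not a block. Further alternatives were TPM, quantile normalization, another pseudocount, other filters, only the groups compared, leaving out each library, and centring. Centring subtracted the median log2 value of the chromosome, or of the 50 tested genes on each side. Named in each list are up to 4 genes with the largest change among those called, and named neighbours come from the nearest 3 tested genes on each side. The 7 genes, lists and tests were chosen with earlier results of these data known. 1 listed gene of 180 was not matched by symbol, and 0 columns of other series were present.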

Additional observations from a re-analysis of the deposited data

Results flagged for a closer look

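The lines with the cysteine and the histidine substitution of the same arginine differed in 2 of the 7 genes by a test of the difference itself. Over all genes, 19.0% passed in this comparison. Mycn was lower in R377C, at -0.33 on the log2 scale for R377C minus R377H (limma adjusted p = 0.016). Both R377C libraries (1200 and 1379 normalized counts) lay below both R377H libraries (1589 and 1655). Mnt was lower by more, at -0.54 (limma adjusted p = 8.3e-05), with 3876 and 3933 against 5470 and 5862. For Mnt, 5 of the 6 nearest tested genes differed in the same direction, among them Mettl16 (-0.87 ± 0.08) and Pafah1b1 (-0.76 ± 0.06). After centring on the chromosome the Mnt difference was -0.04 (limma adjusted p = 0.76). The Mycn difference did not pass on TPM (-0.23, limma adjusted p = 0.13). It was -0.23 without R377C replicate 1 and -0.305 without R377H replicate 2.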

How the results depend on the processing

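Of the 28 calls on the 7 genes, 10 held under all 15 alternatives that applied: Myc in WT IAA and R448Q, Mycn in R339Q, K365T, R377H and Q418R, Mycl and Max in Q418R, and Mxd1 in K365T and R448Q. On TPM the number of the 10 comparisons that passed fell from 4 to 2 for Myc and from 5 to 2 for Mycl, and rose from 1 to 2 for Max. With no filter on low counts it was 3 for Mycl. It was 2 for Max after quantile normalization and 2 after chromosome centring, and 5 for Mnt after neighbourhood centring, against 3. Leaving out 1 library in turn it was 3 to 5 for Myc, 5 to 6 for Mycn, 2 to 5 for Mycl, 1 to 1 for Max, 3 to 4 for Mxd1, 0 to 3 for Mxd3 and 1 to 4 for Mnt; such fits have fewer samples. The lowest counts came without WT ID replicate 1 for Mxd3 and without WT ID replicate 2 for Mycl and Mnt. For Mnt, R377H turned to -0.14 after chromosome centring and -0.22 after neighbourhood centring, and R377C minus R377H turned to 0.041 after neighbourhood centring. The cause of these changes was not tested.

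With the replicate number as a block, every count of comparisons kept its value: 4 for Myc, 6 for Mycn, 5 for Mycl, 1 for Max, 4 for Mxd1, 3 for Mxd3 and 3 for Mnt. TPM moved the median of all genes by -0.17 in R448Q and by 0.11 in R377C minus R377H. The share of calls above 0 on TPM, against the main share, was 42.7% and 55.4% in K365T, 26.3% and 44.6% in Q418R, 70.2% and 42.9% in R342C, 40.4% and 57.4% in R377H, 31.2% and 49.7% in R448Q, and 64.3% and 41.5% in R377C against R377H. With only the groups compared it was 56.6% in R342C. With 2 libraries a group, a miss does not show that values did not differ.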

Other observations

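Signalling genes upstream of Myc (10 listed, all tested) were called in both directions. In Q418R 4 rose and 0 fell (11.2% and 13.8% of all genes), and in R377H 4 rose and 1 fell (14.4% and 10.7%). In K365T 1 rose and 4 fell (17.7% and 14.2%), in WT IAA 1 rose and 3 fell (9.96% and 10.7%), in R339Q 1 rose and 3 fell (11.8% and 9.70%), and in R448Q 2 rose and 2 fell (22.8% and 23.1%). The 4 that fell in K365T became 1 without WT ID replicate 1, the 3 in R339Q became 1 without R339Q replicate 1, and the 4 that rose in R377H became 1 after chromosome centring. Lef1, a transcription factor of the Wnt pathway, rose in Q418R (2.68 ± 0.30), R448Q (1.99 ± 0.30) and WT IAA (0.98 ± 0.30). Sp5, a direct Wnt target, rose in Q418R (1.38 ± 0.24) and fell in R342C (-2.02 ± 0.24) and S354F (-1.62 ± 0.24). Axin2, the feedback inhibitor of the same pathway, rose in R448Q (0.59 ± 0.09), Q418R (0.53 ± 0.09) and R377H (0.31 ± 0.09) and fell in R342C (-0.50 ± 0.09). Stat3, through which leukemia inhibitory factor acts, fell in WT IAA (-0.58 ± 0.08) and rose in R377H (0.33 ± 0.08). Values of these named genes are as fitted, before centring, and include any shift of a gene's chromosome. In R377H the median of chromosome 11 was 0.54 relative to all genes. All cells were held in a GSK3 inhibitor, which activates the Wnt pathway. The part of these signalling genes in the Myc results was not tested.

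Cofactor and turnover genes of Myc (23 tested, 3 shared with the next list) gave 11 that rose and 3 that fell in R448Q (22.8% and 23.1% of all genes), 0 that rose and 8 that fell in R342C (10.0% and 13.3%), and 1 that rose and 7 that fell in H455R (12.6% and 10.5%). The 8 in R342C became 2 without WT ID replicate 1 and 2 on TPM, and the 7 in H455R became 1 without H455R replicate 1. The 11 in R448Q became 7 without R448Q replicate 2 and 5 on TPM. Of all 18713 genes, 963 fell in R342C and 2734 rose in R448Q on TPM. Bptf, a chromatin remodelling subunit on chromosome 11, rose in R448Q (0.82 ± 0.09) and R377H (0.58 ± 0.09). These values and those of the genes named below are as fitted, before centring. Relative to all genes, the chromosome 11 median was 0.15 in R448Q and 0.54 in R377H. Fbxw7, which marks Myc protein for degradation, rose in R448Q (0.75 ± 0.09), WT IAA (0.54 ± 0.09), R339Q (0.47 ± 0.09) and Q418R (0.37 ± 0.09). Usp28, which removes that mark, fell in H455R (-0.70 ± 0.09), WT IAA (-0.58 ± 0.09), R339Q (-0.49 ± 0.09) and R448Q (-0.41 ± 0.09). Of 14 subunits of the Polycomb complex that holds Max and Mga, 5 rose and 0 fell in R448Q (22.8% and 23.1% of all genes). In Q418R 4 rose and 2 fell (11.2% and 13.8% of all genes). In K365T 3 rose and 0 fell (17.7% and 14.2%), and in R342C 0 rose and 3 fell (10.0% and 13.3%). The 3 in R342C became 1 without R342C replicate 1, and the 5 in R448Q became 3 on TPM. Tfdp1, its E2F partner, rose in R448Q (1.34 ± 0.07), K365T (0.71 ± 0.07), Q418R (0.45 ± 0.07) and R377C (0.44 ± 0.07), and Yaf2 rose in K365T (0.93 ± 0.14), R448Q (0.82 ± 0.14) and R377H (0.80 ± 0.14). Rnf2, the catalytic ring protein, rose in R448Q (0.69 ± 0.07), Q418R (0.41 ± 0.07) and K365T (0.40 ± 0.07).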
